A study of Homo sapiens with 4 samples.

Results

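The genes described are 10 members of the transforming growth factor beta (TGF-beta) pathway, out of 18398 genes with a value in each library. They were taken by symbol for their place in the pathway. TGFB1 and TGFB2 encode ligands, TGFBR1 and TGFBR2 the type I and type II receptors, SMAD2 and SMAD3 the receptor-regulated SMADs, SMAD4 the common SMAD, SMAD6 and SMAD7 the inhibitory SMADs, and SKIL the corepressor SnoN. RNA was sequenced from Huh1 and Huh7, established human hepatocellular carcinoma (HCC) cell lines. In each line, cells received 15 nM of NCsiRNA, which targets no human transcript, or of CDCA8siRNA against CDCA8 (borealin), a subunit of the chromosomal passenger complex of dividing cells, and RNA was taken after 48 h. The dose, the time and the siRNA variant (CDCA8-1) come from the study's methods, and both lines were cultured in serum. There was 1 library for each of the 4 conditions and 1 siRNA sequence against CDCA8, so the loss of CDCA8 and any other action of that siRNA cannot be told apart.

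TGF-beta ligands are made as latent precursors and, once released, bring the type II and type I receptors together at the cell surface. The type I kinase then phosphorylates SMAD2 and SMAD3, which join SMAD4 and enter the nucleus to switch genes on or off. SMAD6 and SMAD7 block this step, and SKIL holds SMAD complexes in a repressed state on DNA. In liver, the pathway is known for slowing hepatocyte division and for driving fibrosis, and in advanced HCC it is also linked to invasion.

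Values are RPKM, which divides the reads of a gene by its length and by the library's depth. Levels of different genes can be set side by side as far as that length is right. The depth of the libraries is not given. Worked out from the value that 1 read took, it lay between 12197606 and 13384836 reads. A change is given as a log2 fold change of RPKM + 1, which understates the change of low genes. Its sampling SD is the error that counting a limited number of reads gives, and it holds no variation between cultures. CDCA8 itself stood at 24.1 RPKM with NCsiRNA and 5.86 with CDCA8siRNA in Huh1, and at 51.5 and 7.36 in Huh7. All 8 hepatocyte markers (ALB, APOA1, APOB, TTR, AFP, SERPINA1, FGB and TF) exceeded 1 RPKM in every library. Among markers of other cell types, the endothelial genes CDH5, KDR and VWF stayed at or below 0.0247 RPKM and the leukocyte gene PTPRC at or below 0.417. CD68, another leukocyte marker, stood at 23.3 and 16.5 RPKM in Huh1 and at 3.71 and 3.73 in Huh7. The fibroblast markers differed by line. In Huh1, LUM alone of 7 exceeded 1 RPKM, while Huh7 held 107 RPKM of COL1A1, 31.4 of COL1A2 and 143 of LUM with NCsiRNA. Each library is of 1 cultured line, and fewer cells making an RNA and less of it per cell cannot be told apart there.

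The 250 bases upstream of a transcription start are given for TGFB1, which differed most between the cell lines, for TGFBR1, which fell with CDCA8siRNA, and for SMAD6, whose window holds the SMAD motif GTCTAGAC. They are RefSeq sequences of build GRCh38.p14, read 5′ to 3′ on the strand of the gene, and end at the start nearest to that of the transcript measured. Capitals mark matches to either strand of GTCTAGAC or CAGAC, letters that SMAD3 and SMAD4 are known to bind. The TGFB1 window is chr19:41353923-41354172 on the minus strand, that of TGFBR1 chr9:99104833-99105082 on the plus strand, and that of SMAD6 chr15:66701986-66702235 on the plus strand, with the last 8 bases inside the GENCODE transcript.
TGFB1: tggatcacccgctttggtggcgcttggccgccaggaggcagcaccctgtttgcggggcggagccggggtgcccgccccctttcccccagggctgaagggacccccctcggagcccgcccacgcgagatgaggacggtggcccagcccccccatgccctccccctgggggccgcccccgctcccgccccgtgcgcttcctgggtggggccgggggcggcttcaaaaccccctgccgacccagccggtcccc
TGFBR1: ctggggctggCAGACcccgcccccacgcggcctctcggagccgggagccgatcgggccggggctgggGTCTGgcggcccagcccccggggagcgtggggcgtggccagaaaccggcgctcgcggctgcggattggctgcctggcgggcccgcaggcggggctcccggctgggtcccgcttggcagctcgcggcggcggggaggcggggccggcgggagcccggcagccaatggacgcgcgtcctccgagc
SMAD6: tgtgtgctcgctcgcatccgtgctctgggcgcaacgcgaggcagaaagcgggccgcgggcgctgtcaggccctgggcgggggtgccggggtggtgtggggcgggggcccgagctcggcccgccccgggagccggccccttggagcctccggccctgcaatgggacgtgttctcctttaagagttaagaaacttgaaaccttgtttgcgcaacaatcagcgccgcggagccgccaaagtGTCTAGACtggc
SMAD6 was the only member with GTCTAGAC in the window nearest to its measured transcript. Of 35116 windows of 250 bases in the RefSeq table, 64 (0.182%) held it. Those windows were not chosen by nearness to a measured transcript, so the shares here and below set unlike windows side by side. CAGAC, the 5-letter element, was present for 4 of 10 members, TGFBR1 among them with 2 copies, against 38.0% of all windows. GGCGCC, another motif of SMAD proteins, was present for 4 of 10 members against 16.4%, and the AP-1 motif TGAGTCA for 0 against 4.20%. No 2 of these motifs contain one another, and TGFB1 carried none of the 4 in its window. These matches describe letters in a window of 250 bases and say nothing of binding.

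All 10 genes were transcribed above 2 RPKM in all 4 libraries. The type II receptor TGFBR2 was the most abundant member in every library (57.0 to 80.9 RPKM), and SMAD3 came next (28.3 to 36.9 RPKM). At the low end stood TGFB1 in Huh1 with NCsiRNA, at 2.07 RPKM, and TGFBR1 in both libraries with CDCA8siRNA, at 2.68 and 2.71 RPKM. Between these, several neighbours in the order lay within 1.96 sampling SD of each other, such as TGFB2 and SMAD7 in Huh1 with NCsiRNA and SKIL and SMAD7 in both Huh7 libraries. TGFBR2 exceeded its partner TGFBR1 by 13.6 times in Huh1 and 11.2 times in Huh7 with NCsiRNA, and by 23.7 and 29.9 times with CDCA8siRNA. SMAD3 exceeded SMAD2 by 3.86 and 4.69 times in the Huh1 libraries and by 8.21 and 9.30 times in the Huh7 libraries. The length behind the SMAD2 values could not be recovered. Its GENCODE transcript has 34526 bases and its coding part 1401. The size of this ratio and the place of SMAD2 in the order therefore depend on an unknown length.

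**Figure D1:**
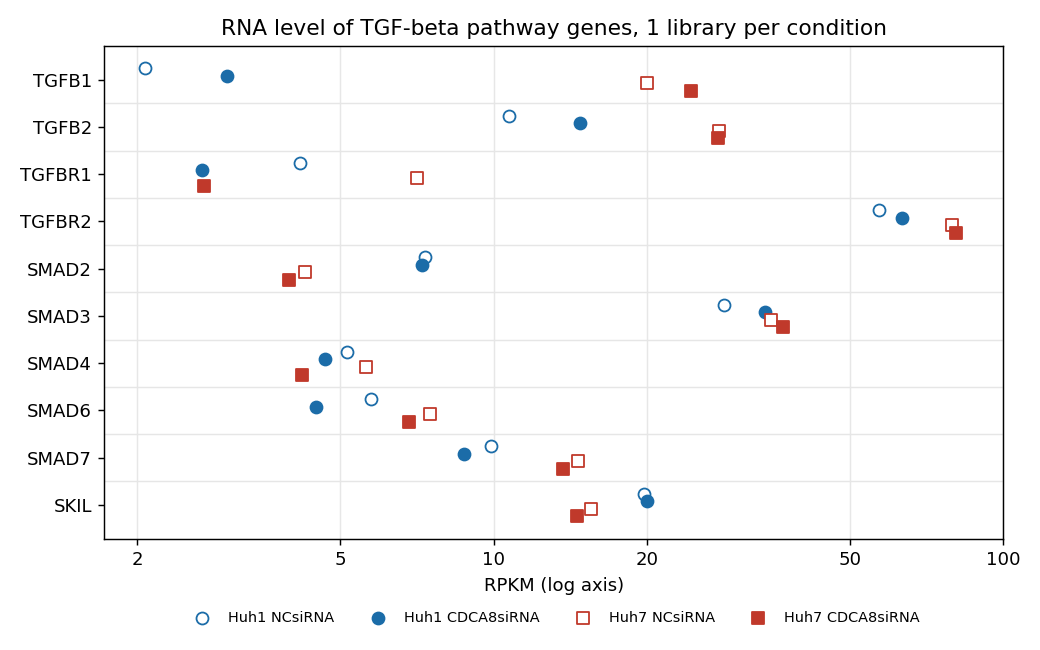
RPKM of each gene on a log axis, 1 point per library; open symbols are NCsiRNA and filled symbols CDCA8siRNA, circles Huh1 and squares Huh7. TGFBR2 lies farthest right in every library, the TGFB1 points of the lines lie far apart, and both filled TGFBR1 points lie at 2.7 RPKM, left of both open ones.

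The first comparison asks which of these genes changed when CDCA8 was silenced. TGFBR1, the type I receptor kinase (chr9:99104038-99154192, plus strand, positions here and below from GENCODE 29 on GRCh38), measured 4.18 RPKM with NCsiRNA and 2.68 with CDCA8siRNA in Huh1, and 7.09 and 2.71 in Huh7. Both libraries with CDCA8siRNA lay below both with NCsiRNA, an order that SMAD4 showed as well. The share of all genes with this order was not counted, so the order sets neither gene apart. The lines, which differed in TGFBR1 with NCsiRNA, ended at nearly the same level. This left 64.2% of the TGFBR1 RNA in Huh1 and 38.2% in Huh7, or 229 reads in place of 362 and 215 in place of 560. The log2 fold change was -0.49 (sampling SD 0.0925) in Huh1 and -1.13 (sampling SD 0.0895) in Huh7. In Huh7, TGFBR1 was the 51st lowest of 11565 genes, and in Huh1 the 253rd lowest of 10940. The fold change in Huh7 was lower than that in Huh1 by 0.63 on the log2 scale (log2 difference -0.63, sampling SD 0.129), a difference that 1 library per condition cannot test.

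The 2-fold threshold of the study was used, but without the limit on p that the study also set, so counts are not comparable. By it, 0 of 10 members were changed in Huh1, where 0.494% of all genes were. In Huh7, 1 of 10 was (TGFBR1), where 1.57% of all genes were. A linear model over all 4 libraries (limma, cell line and siRNA as terms, Benjamini-Hochberg adjustment over 10357 genes) then gave the mean change over both lines. TGFBR1 fell by 0.81 on the log2 scale (SE 0.162, adjusted p = 0.0174 in limma), a 1.75-fold change, and it was lower in 2 of 2 lines. Thus 1 of 10 members passed downward, where 4.21% of all genes did, and 0 of 10 passed upward, where 6.03% did. The call on TGFBR1 was lost without the filter on low genes (adjusted p = 0.457 in limma) and without the line as a covariate (adjusted p = 1.000), and over the alternatives the adjusted p ran from 0.000107 to 1.000. With a minimum of 5 RPKM, TGFBR1 did not enter the fit.

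Markers moved with the siRNA as well. Of the 8 hepatocyte markers, 6 fell in the same fit, where 4.21% of all genes did. TTR and AFP were not called (adjusted p = 0.355 and 0.733 in limma). TTR measured 5.10 and 4.49 RPKM in Huh1 and 29.3 and 48.5 in Huh7, NCsiRNA first. AFP measured 24.8 and 27.5 RPKM in Huh1 and 865 and 715 in Huh7. The 8 markers summed to 5129 RPKM with NCsiRNA and 3945 with CDCA8siRNA in Huh1, and to 3253 and 2282 in Huh7. Of these sums, ALB, the serum albumin gene, held 3447 and 2684 RPKM in Huh1 and 1166 and 721 in Huh7. ALB fell by 0.53 on the log2 scale (SE 0.0803, adjusted p = 0.00587 in limma). The summed level of the 7 fibroblast markers was 12.1 and 25.9 RPKM in Huh1, where DCN was listed at 0 in both libraries, and 284 and 378 RPKM in Huh7. In Huh1, LUM held 11.95 and 25.6 RPKM of this sum, so the rise there is that of 1 gene. LUM was the only fibroblast marker in the fit, which called it higher (fitted 0.72, SE 0.135, adjusted p = 0.0130 in limma). Of the 4 leukocyte markers, CD68 alone exceeded 1 RPKM, the list summing to 23.6 and 17.1 RPKM in Huh1 and to 3.99 and 4.51 in Huh7, and CD3E was listed at 0 in both Huh1 libraries. The endothelial list summed to 0.0247 RPKM or less, with CDH5 at 0 in all 4 libraries. The part of these markers in the TGFBR1 result was not tested.

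**Figure D2:**
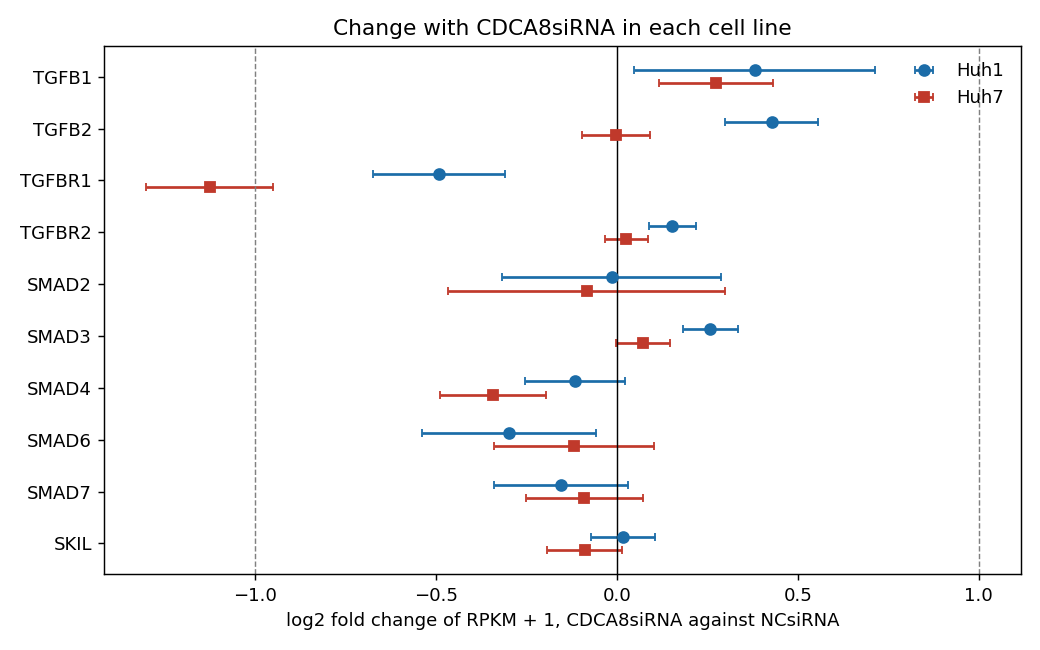
log2 fold change of RPKM + 1 with CDCA8siRNA in Huh1 (circles) and Huh7 (squares), with bars of 1.96 sampling SD and dashed lines at 2-fold. TGFBR1 lies at -0.49 and -1.13, and the other 9 genes lie within 0.43 of 0 in both lines.

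Its partner TGFBR2 (chr3:30606502-30694142, plus strand), the type II kinase that binds ligand first, measured 57.0 and 63.4 RPKM in Huh1 and 79.5 and 80.9 in Huh7, NCsiRNA first. The log2 fold changes were 0.15 (sampling SD 0.0330) and 0.03 (sampling SD 0.0299), and the fitted change of 0.09 (SE 0.0869) did not pass (adjusted p = 0.565 in limma). At least 3529 reads lay behind each of these values, so counting error was small beside the spread that the fit allows. Whether the receptors of the pair differed in response was not tested.

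Among the ligands, TGFB1 (chr19:41301587-41353911, minus strand) measured 2.07 and 2.997 RPKM in Huh1 and 20.01 and 24.4 in Huh7. Its values with CDCA8siRNA were higher in 2 of 2 lines, at 0.38 (sampling SD 0.170) and 0.27 (sampling SD 0.0802) on the log2 scale. The Huh1 value rests on 61 and 87 reads. The fitted change of 0.33 (SE 0.111) had an unadjusted p of 0.0162 and missed the threshold after adjustment (adjusted p = 0.0996 in limma, 0.0889 to 1.000 over the alternatives).

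TGFB2 (chr1:218346235-218444619, plus strand), the second ligand, gave another picture. It measured 10.7 and 14.7 RPKM in Huh1, a log2 fold change of 0.43 (sampling SD 0.0658), but 27.7 and 27.6 RPKM in Huh7, a log2 fold change of -0.0029 (sampling SD 0.0481). The fitted change of 0.21 (SE 0.121) did not pass (adjusted p = 0.310 in limma). Its exons share 1371 bases with TGFB2-OT1 on the same strand, and reads of these 2 genes cannot be told apart there. The TGFB2 level was 5.17 and 4.92 times that of TGFB1 in the Huh1 libraries, and 1.38 and 1.13 times in the Huh7 libraries.

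SMAD3 (chr15:67063763-67195195, plus strand), the receptor-regulated SMAD that binds DNA directly, measured 28.3 and 34.02 RPKM in Huh1 and 35.1 and 36.9 in Huh7. Its log2 fold changes were 0.26 (sampling SD 0.0390) and 0.07 (sampling SD 0.0379), and its fitted change was 0.17 (SE 0.0968, adjusted p = 0.322 in limma). SMAD2 (chr18:47808957-47931146, minus strand), its close relative, measured 7.33 and 7.25 RPKM in Huh1 and 4.27 and 3.97 in Huh7. Its log2 fold changes were -0.01 (sampling SD at most 0.154) and -0.08 (sampling SD at most 0.195). SMAD4 (chr18:51028394-51085045, plus strand), which all SMAD complexes share, measured 5.15 and 4.68 RPKM in Huh1 and 5.61 and 4.21 in Huh7. Its Huh7 value with CDCA8siRNA was the lowest of the 4, with a log2 fold change of -0.34 (sampling SD 0.0742), against -0.12 (sampling SD 0.0709) in Huh1. The fit did not call SMAD4 (-0.23, SE 0.125, adjusted p = 0.289 in limma). SMAD4 shares 1006 exon bases with AC091551.1 on the same strand.

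The inhibitory SMADs are themselves induced by the pathways they restrain, SMAD7 by TGF-beta and SMAD6 by bone morphogenetic proteins (BMPs). SMAD7 (chr18:48919853-48952052, minus strand) measured 9.87 and 8.77 RPKM in Huh1 and 14.7 and 13.7 in Huh7. SMAD6 (chr15:66702228-66782848, plus strand) measured 5.74 and 4.48 RPKM in Huh1 and 7.49 and 6.83 in Huh7. Both genes were lower with CDCA8siRNA in 2 of 2 lines, yet neither passed, with fitted changes of -0.12 (SE 0.105, adjusted p = 0.505 in limma) for SMAD7 and -0.21 (SE 0.119, adjusted p = 0.311) for SMAD6. SKIL (chr3:170357678-170396835, plus strand), whose protein SnoN is destroyed when the pathway is active, measured 19.8 and 19.98 RPKM in Huh1 and 15.5 and 14.6 in Huh7. Its fitted change was -0.04 (SE 0.101, adjusted p = 0.855 in limma).

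As a group, the 10 genes had a median log2 fold change of 0.00036 in Huh1 beside 0.023 over all genes, and of -0.087 in Huh7 beside 0.033. Higher values with CDCA8siRNA were seen for 5 of them in Huh1 and 3 in Huh7, where SKIL in Huh1 and TGFB2 in Huh7 lay so near 0 that another scaling turned their sign. In the fit, the median was -0.043 for the members and 0.026 for all genes. Apart from TGFBR1, no fitted change of a member exceeded 0.33 in size.

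**Figure D3:**
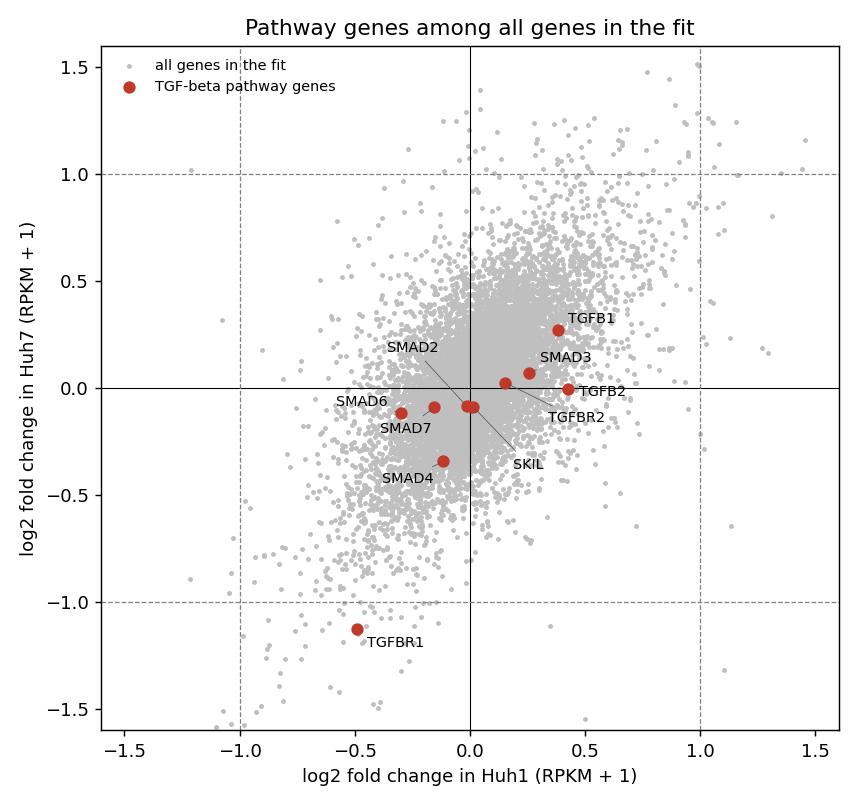
log2 fold change with CDCA8siRNA in Huh1 (x axis) against Huh7 (y axis), both of RPKM + 1, for the genes of the fit (grey, 10339 within the axes and 18 beyond them) and the 10 pathway genes (red), with dashed lines at 2-fold. TGFBR1 stands at the lower left edge, past 2-fold in Huh7 alone, and the other 9 lie inside the bulk of the grey points.

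The genes whose levels followed TGFBR1 most closely over the 4 libraries were ENOPH1, an enzyme of methionine salvage, KIF3B, a kinesin motor subunit, and PIH1D2. Their distances from TGFBR1, after centring log2(RPKM + 1), were 0.0960, 0.138 and 0.152, the smallest among 10356 genes. ENOPH1 measured 22.1 and 14.1 RPKM in Huh1, NCsiRNA first, and 32.4 and 14.6 in Huh7. KIF3B measured 17.996 and 11.97 RPKM in Huh1 and 26.3 and 10.96 in Huh7. With 4 libraries, such likeness describes these values only.

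The second comparison set Huh7 against Huh1 over both siRNAs, to show how the lines differ in the pathway they carry. The fit called 5 of 10 members higher in Huh7 (TGFB1, TGFB2, TGFBR2, SMAD6 and SMAD7), where 42.5% of all 12148 genes were higher. It called 2 of 10 lower (SMAD2 and SKIL), where 28.7% of all genes were lower. Together 7 of 10 members differed, close to the 71.2% of all genes. The median of all genes lay 0.14 higher in Huh7 on the log2 scale, a shift that quantile normalization removes, so differences are also given relative to it.

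TGFB1 differed most. It stood at 2.07 and 2.997 RPKM in Huh1 and 20.01 and 24.4 in Huh7, a 9.66-fold difference with NCsiRNA and 8.13-fold with CDCA8siRNA. The fitted log2 difference was 2.72 (SE 0.111, adjusted p = 1.23e-07 in limma), or 2.58 relative to the median of all genes. With NCsiRNA, TGFB1 ranked 260th from the top of 11896 genes in this difference. TGFB2 was 2.58-fold higher in Huh7 with NCsiRNA and 1.87-fold with CDCA8siRNA (fitted log2 difference 1.08, SE 0.122, adjusted p = 6.38e-05 in limma), and 0.93 relative to the median of all genes. The TGFB2 call was lost without the filter on low genes (adjusted p = 0.0638 in limma, the highest over the settings). For both ligands, every Huh7 library lay above every Huh1 library, as it did for TGFBR2, SMAD3, SMAD6 and SMAD7. For SMAD2 and SKIL, every Huh7 library lay below every Huh1 library. The share of all genes without overlap between the lines was not counted, so this separation does not set these genes apart.

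Differences in the receptors were smaller. TGFBR2 was higher in Huh7 by 0.41 on the log2 scale (SE 0.0862, adjusted p = 0.00247 in limma), or 0.27 relative to the median of all genes, a call lost without the filter (adjusted p = 0.0550, the highest over the settings). TGFBR1 was 1.70-fold higher in Huh7 with NCsiRNA but 1.01-fold with CDCA8siRNA, and its fitted difference of 0.33 (SE 0.166) did not pass (adjusted p = 0.106 in limma).

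Of the SMADs, SMAD2 was the lower one in Huh7, at 4.27 and 3.97 RPKM against 7.33 and 7.25. Its fitted log2 difference was -0.70 (SE 0.117, adjusted p = 0.000681 in limma), and -0.84 relative to the median of all genes. SMAD7 was higher in Huh7 by 0.56 (SE 0.104, adjusted p = 0.00126 in limma) and SMAD6 by 0.42 (SE 0.118, adjusted p = 0.0109), or by 0.42 and 0.28 relative to the median. The SMAD6 call was lost under quantile normalization (adjusted p = 0.0913), without the filter (0.103) and without the siRNA as a covariate (0.0673), with a range of 0.0109 to 0.103 over all settings. SMAD3 (0.21, SE 0.0964, adjusted p = 0.0824 in limma) and SMAD4 (-0.01, SE 0.125, adjusted p = 0.946) were not called, and the sign of SMAD4 with NCsiRNA turned from 0.10 to -0.08 under quantile normalization. SKIL was lower in Huh7 by 0.38 (log2 difference -0.38, SE 0.10, adjusted p = 0.00818 in limma). Without the filter the SKIL call was lost (adjusted p = 0.0583 in limma, the highest over the settings).

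**Figure D4:**
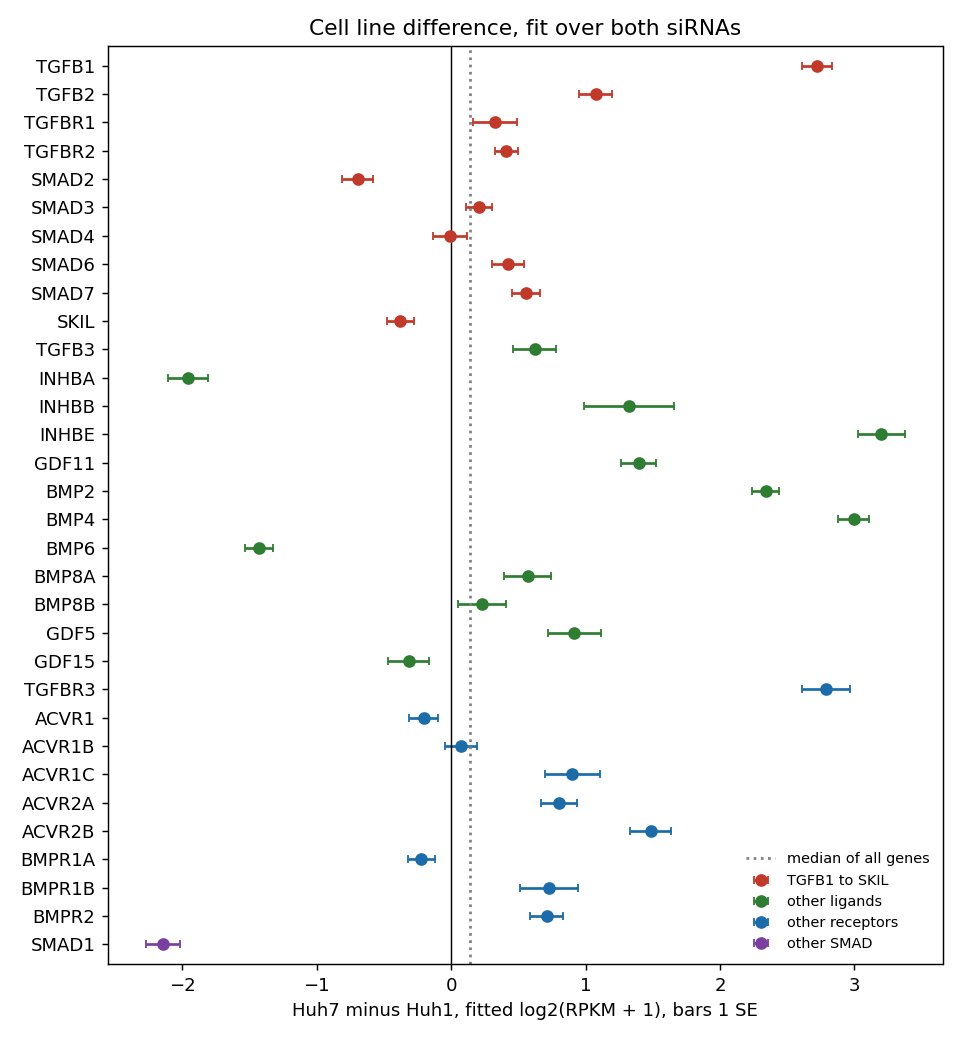
Fitted difference of log2(RPKM + 1), Huh7 minus Huh1, with bars of 1 SE, for the 10 genes (red) and the other tested ligands, receptors and SMAD of the family. The dotted line is the median of all genes, 0.14; TGFB1 at 2.72 lies farthest right of the red points and SMAD2 at -0.70 farthest left.

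The rest of the family was read from lists of other ligands, receptors, SMADs, pathway inhibitors, ligand activators and targets. Counts of these lists stand beside 6.03% of all genes higher and 4.21% lower in the siRNA fit, and without the filter on low genes that fit called 0 genes in either direction, so all calls on list genes were lost there (limma, 1288 higher and 762 lower at an unadjusted p under 0.05). Of 10 other ligands in the siRNA fit, 0 rose and 1 fell, with a median of -0.085. That was INHBE, the activin E subunit made by liver, which measured 1.24 and 0.756 RPKM in Huh1 and 25.5 and 11.6 in Huh7 (fitted -0.71, SE 0.169, adjusted p = 0.0304 in limma). INHBB, the activin B subunit, measured 0.889 and 1.07 RPKM in Huh1 but 7.70 and 1.81 in Huh7 (fitted -0.75, SE 0.322, adjusted p = 0.177), past 2-fold in Huh7 alone. The highest single values among other ligands were those of BMP2, GDF15 and BMP4, but the order differed by line. GDF15 was the highest of them in Huh1, at 29.9 and 53.6 RPKM, and measured 31.0 and 32.9 in Huh7. It was not called (fitted 0.45, SE 0.152, adjusted p = 0.0945 in limma). BMP2 measured 10.1 and 13.8 RPKM in Huh1 and 58.98 and 69.2 in Huh7, and BMP4 4.17 and 3.91 in Huh1 and 45 and 34.1 in Huh7, while in Huh1 BMP6 exceeded both at 27.9 and 23.7. Between the lines, 8 of 12 other ligands were higher in Huh7, beside 42.5% of all genes, and 2 lower, INHBA (-1.96) and BMP6 (-1.43), beside 28.7%.

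Of 5 other receptors in that fit, 0 rose and 1 fell. This was ACVR1B (ALK4), the activin type I receptor that phosphorylates the same SMADs as TGFBR1. ACVR1B measured 10.8 and 7.95 RPKM in Huh1 and 13.02 and 7.36 in Huh7 (fitted -0.57, SE 0.121, adjusted p = 0.0204 in limma). As for TGFBR1 and SMAD4, both of its libraries with CDCA8siRNA lay below both with NCsiRNA. How many of all genes had this order was not counted. ACVR1, a BMP type I receptor, had the same order but was not called. It measured 18.01 and 16.5 RPKM in Huh1 and 17.1 and 12.8 in Huh7 (adjusted p = 0.172 in limma). BMPR1A, another one, measured 13.7 and 15.6 RPKM in Huh1 and 11.9 and 12.99 in Huh7 (adjusted p = 0.405). The median of the 5 was 0.027. SMAD1, which carries BMP signals and was the one other SMAD in the fit, measured 9.08 and 8.22 RPKM in Huh1 and 1.27 and 1.10 in Huh7. It was not called for the siRNA (adjusted p = 0.591 in limma), and it was lower in Huh7 (log2 difference -2.14, SE 0.127). SMAD9 stayed under 1 RPKM in all 4 libraries.

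Among 16 inhibitors and regulators of receptors and SMADs, 0 rose and 3 fell (18.8%, beside 4.21% of all genes), with a median of 0.055. FKBP1A, the protein that holds type I receptors inactive without ligand, measured 118 and 89.4 RPKM in Huh1 and 152 and 54.1 in Huh7 (fitted -0.93, SE 0.195, adjusted p = 0.0198 in limma). CTDSP2, a phosphatase of SMADs, measured 19.3 and 13.3 RPKM in Huh1 and 34.2 and 17.9 in Huh7 (fitted -0.70, adjusted p = 0.0089). PPM1A, a phosphatase reported to act on SMAD2 and SMAD3, measured 8.92 and 6.84 RPKM in Huh1 and 7.81 and 4.85 in Huh7 (fitted -0.46, adjusted p = 0.0412). Of 8 genes that activate or trap ligands, 1 rose and 1 fell, with a median of 0.14. THBS1, which frees TGF-beta from its latent form, measured 63.96 and 130 RPKM in Huh1 and 154 and 182 in Huh7 (fitted 0.62, adjusted p = 0.032). FST, the activin-binding follistatin, measured 41.4 and 35.4 RPKM in Huh1 and 8.34 and 4.40 in Huh7 (fitted -0.51, adjusted p = 0.0472). CER1, an antagonist of nodal and BMPs, was listed at 0 in both Huh1 libraries and at 9.46 and 2.77 RPKM in Huh7, past 2-fold.

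Target genes lie at the far end of the pathway. BAMBI, PMEPA1 and SMURF2 stand among the inhibitors and the targets alike. Of 17 TGF-beta targets in the fit, 2 rose (11.8%, beside 6.03% of all genes) and 0 fell, with a median of 0.25 beside 0.026 for all genes. CDKN2B, the cell cycle inhibitor p15, measured 8.81 and 19.0 RPKM in Huh1 and 5.02 and 13.5 in Huh7, past 2-fold in both lines (fitted 1.15, SE 0.112, adjusted p = 0.0012 in limma). TAGLN, an actin-binding protein, measured 2.27 and 3.31 RPKM in Huh1 and 21.4 and 44.4 in Huh7 (fitted 0.71, SE 0.147, adjusted p = 0.0193). The other 15 were not called. This list, like the others, was chosen with earlier results of these data known. Its share and median therefore describe these values only. Of 5 BMP targets, 0 rose and 2 fell, with a median of -0.11. ID2, an inhibitor of differentiation, measured 51.1 and 36.4 RPKM in Huh1 and 153 and 75.8 in Huh7 (fitted -0.74, adjusted p = 0.0080), and ID1 193 and 161 in Huh1 and 147 and 115 in Huh7 (fitted -0.31, adjusted p = 0.0405).

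**Figure D5:**
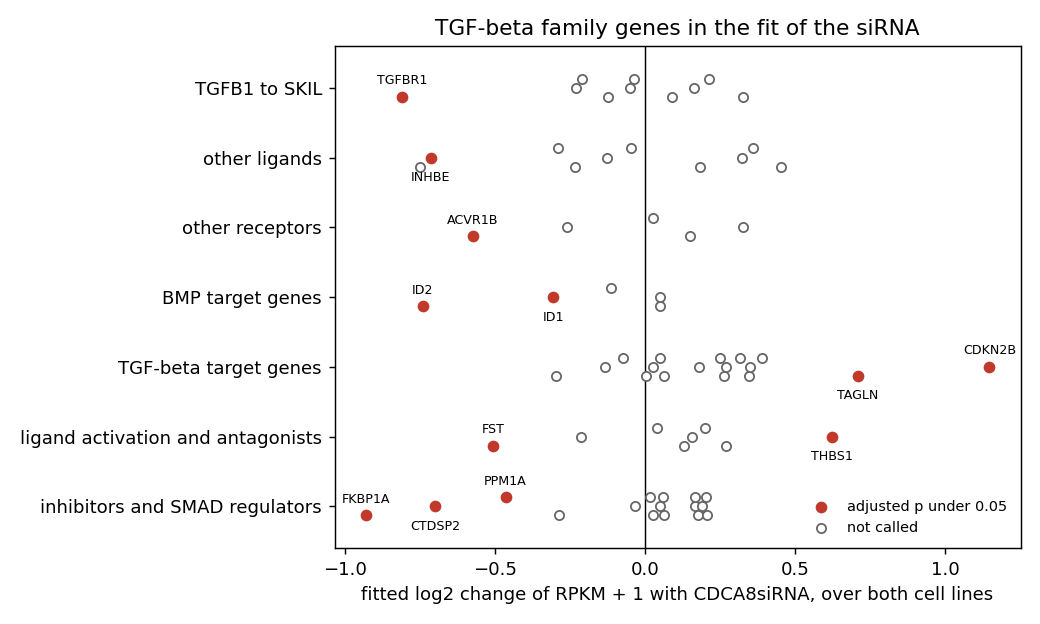
Fitted log2 change of RPKM + 1 with CDCA8siRNA over both lines, 1 point per gene, for the 10 genes and 6 lists of the family; filled points have an adjusted p under 0.05 in limma. TGFBR1 is the filled point of its row, and the row of TGF-beta target genes has filled points on the right side alone, CDKN2B at 1.15 and TAGLN at 0.71.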

How the data were processed

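RNA of Huh1 and Huh7 cells with NCsiRNA or CDCA8siRNA was measured in 4 libraries (TruSeq kit per the labels), 1 per condition. Each deposited file lists 18398 RefSeq transcripts with a value whose unit is unnamed. After scaling by transcript length, low values step by the worth of 1 read, so the deposited values were read as RPKM. The submitters' processing notes name CASAVA 1.8.2, TopHat2 2.0.9 and build hg19. How the authors counted reads is not given in the sources used here.

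From the deposited RPKM, log2(RPKM + 1) was computed. Genes needed at least 1 RPKM in 1 library of a line (for the siRNA fit, in each line). Within a line, 2-fold changes were counted with no test. limma 3.58.1 in R 4.3.3 (trend, Benjamini-Hochberg) was fitted to the 4 libraries with line and siRNA as terms, leaving 1 residual degree of freedom. The p-values set the mean change over the lines against a spread taken from the disagreement of the lines and, in larger part, from other genes (8.29 prior degrees of freedom for the siRNA, 7.48 for the line), not from replicates. Nothing states that the cultures were independent. The test named in the study was not used, since its design for 1 library per condition is not given. The steps were run on simulated data in which both lines changed alike. That setting differs from these data, so its outcome says nothing of the calls made here. Read numbers came from the worth of 1 read and the transcript length, and served for sampling SD only, which covers counting error. For SMAD2 the coding length was used, which makes its SD an upper limit.

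Named were the 10 members, CDCA8, list genes past 2-fold in a line or with an adjusted p under 0.05 (up to 6 per list), the 3 other ligands, receptors and SMADs with the highest RPKM, and the 3 genes nearest to TGFBR1. Other list genes (INHBA and BMP6) were named after their values were seen. The members and lists were chosen with earlier results of these data known. Positions come from GENCODE 29 (GRCh38), since the files carry none. SMAD5, GDF1, LTBP4 and PECAM1 were not analysed here. Python 3.11.15 was used for the rest. Alternatives were a pseudocount of 0.1 RPKM, no filter, a minimum of 5 RPKM, quantile normalization, upper quartile scaling, no trend and no covariate.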

Additional observations from a re-analysis of the deposited data

Results flagged for a closer look

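TGFB2 and SKIL had log2 fold changes of opposite sign in the lines. For TGFB2 the value was 0.43 in Huh1 (sampling SD 0.0658) and -0.0029 in Huh7 (sampling SD 0.0481), and upper quartile scaling turned the latter to 0.01. For SKIL it was 0.0153 in Huh1 (sampling SD 0.0451) and -0.0893 in Huh7 (sampling SD 0.0532), and quantile normalization turned the former to -0.02. These differences between the lines were not tested, since each condition had 1 library, and 3 of the 4 values are within 1.96 sampling SD of 0.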

How the results depend on the processing

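Each condition had 1 library, so replicates could be neither paired by number nor left out in turn, while the fit for the siRNA pairs the libraries by cell line. For the siRNA, removing the filter gave 0 genes higher, 0 lower and 0 members called in limma (at an unadjusted p under 0.05, 1288, 762 and 1). Dropping the cell line covariate, which ends this pairing, gave 0, 0 and 0 (unadjusted 44, 45 and 0). With a minimum of 5 RPKM, 0 members were called, since TGFBR1 left the fit and 7 members remained in it. Genes lower numbered 750 after quantile normalization and 267 without the trend, in place of 436. For the cell line, removing the filter gave 3314 genes higher, 2119 lower and 3 members called. A pseudocount of 0.1 RPKM gave 107 genes 2-fold higher and 57 lower in Huh1, and 269 and 153 in Huh7, while quantile normalization gave 22 higher and 20 lower in Huh1 in place of 35 and 19. The causes were not tested. For single members, 140 of 147 changes or differences between 2 libraries stayed within 1.96 sampling SD of the main value, and 129 of 137 fitted values kept their direction and side of the threshold. The other 8 fitted values lost their call (TGFBR1, TGFB2, TGFBR2, SMAD6 and SKIL). Precision is limited by 1 library per condition and, for TGFB1 in Huh1, by 61 reads.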
